A study of Mus musculus with 6 samples.

Results

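Long intergenic noncoding RNA (lincRNA) genes lie between protein-coding genes and are transcribed into long RNAs that carry no protein. The chromatin accessibility of regions assigned to such genes was compared between mouse NIH/3T3 fibroblasts in which the Actg1 mRNA was targeted and the same line with a control guide. The regions were all rows of the deposited table whose gene type was lincRNA, at any distance to the transcription start site (TSS) given there. They numbered 1542 of the 63430 regions and belonged to 1172 genes. The assay was ATAC-seq: Tn5 transposase cuts accessible DNA and tags the ends for sequencing. NIH/3T3 is an established mouse embryonic fibroblast line, and the cells of both groups had the RNA-cutting CRISPR nuclease Cas13d knocked into their genome. The first group (3 libraries) was transfected with a guide RNA specific for Actg1, which encodes cytoplasmic gamma-actin. The second group (3 libraries) was transfected with a guide against GFP. The stated aim was to study mRNA degradation in transcriptional adaptation, the changed expression of related genes that follows the decay of an mRNA. Each library held 25000 cells, the labels do not say whether the knock-in line was 1 clone, and ATAC-seq does not measure the Actg1 mRNA itself. The labels call the libraries biological replicates without naming separate cultures, so a p-value here covers only the variation among these libraries, which may be technical.

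The table gave lincRNA genes by Ensembl ID only. Names were therefore taken by position from RefSeq long noncoding genes of the same build (mm10, GRCm38.p6), which named 462 of the 1172 genes and 617 of the 1542 regions. Most names are clone names (Gm or Rik), and 27 genes carried another symbol. The signal is the authors' normalized read count, rounded to whole numbers, and the 6 libraries held between 7673745 and 7831438 signal in all regions. Estimated from the steps in the values, this corresponds to 5675571 to 9525579 reads in regions per library. Libraries of the same group correlated at 0.972 to 0.981 over log2 values, and libraries of different groups at 0.9 to 0.917. Replicates 1 and 2 of the GFP guide lay within sampling noise of each other (chi-square per region 1.005, p = 0.2), so they were averaged and counted as 1 sample. Errors of the GFP guide group are therefore over n = 2, and those of the Actg1 guide group over n = 3. The fibroblast label was checked on promoter regions. Of 7 fibroblast genes 6 had one (Col1a1, Col1a2, Col3a1, Pdgfrb, Vim and S100a4) and Thy1 did not. Of 7 genes of other cell types, 0 had one. Each region was assigned to 1 gene, so a gene without one may still have an open promoter.

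lincRNAs act in several known ways. Some, such as Xist and Malat1, work as RNA in the nucleus, Xist by coating and silencing an X chromosome and Malat1 in nuclear speckles. Others are the primary transcripts from which microRNAs (miRNAs) or small nucleolar RNAs are cut, and for others the DNA at the promoter acts on neighbouring genes whether or not the RNA does. An open region at such a gene can thus be its own promoter or a regulatory element of a neighbour. In bulk libraries, fewer cells with an open site and less opening per cell cannot be told apart.

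The promoter windows that the results below refer to are given first, from RefSeq, from 250 bases before to 50 after the RefSeq gene start, each overlapping a lincRNA region of the table. The following 4 windows are those of largest rise among regions that were higher with the Actg1 guide and whose window held the letters TGANTCA, the core of the element bound by AP-1, the Fos and Jun factors. Capitals mark AP-1 letters and, in Gm12273, also TATAAA and CATTCC (the core of the TEAD element) on either strand.
Gm39317 (chr9:32349425-32349724, plus strand): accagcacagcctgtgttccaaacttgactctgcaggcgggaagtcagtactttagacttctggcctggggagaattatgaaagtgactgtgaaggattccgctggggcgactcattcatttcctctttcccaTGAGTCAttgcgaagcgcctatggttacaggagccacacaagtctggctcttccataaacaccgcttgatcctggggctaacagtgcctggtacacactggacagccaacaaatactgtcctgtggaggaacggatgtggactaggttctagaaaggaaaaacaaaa
Gm36199 (chr17:29434568-29434867, plus strand): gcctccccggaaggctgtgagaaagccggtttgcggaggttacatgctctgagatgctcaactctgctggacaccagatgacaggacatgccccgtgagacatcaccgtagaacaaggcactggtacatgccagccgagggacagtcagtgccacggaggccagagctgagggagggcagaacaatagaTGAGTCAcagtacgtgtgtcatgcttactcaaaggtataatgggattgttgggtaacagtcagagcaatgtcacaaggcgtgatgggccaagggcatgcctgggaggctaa
Gm12273 (chr11:61950667-61950966, plus strand): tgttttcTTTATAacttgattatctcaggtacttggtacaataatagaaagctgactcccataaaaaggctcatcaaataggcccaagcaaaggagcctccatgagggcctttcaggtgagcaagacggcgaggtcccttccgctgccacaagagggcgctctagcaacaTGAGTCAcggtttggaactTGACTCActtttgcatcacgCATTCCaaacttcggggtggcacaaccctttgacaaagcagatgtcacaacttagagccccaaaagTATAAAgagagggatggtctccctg
3300005D01Rik (chr17:5798407-5798706, plus strand): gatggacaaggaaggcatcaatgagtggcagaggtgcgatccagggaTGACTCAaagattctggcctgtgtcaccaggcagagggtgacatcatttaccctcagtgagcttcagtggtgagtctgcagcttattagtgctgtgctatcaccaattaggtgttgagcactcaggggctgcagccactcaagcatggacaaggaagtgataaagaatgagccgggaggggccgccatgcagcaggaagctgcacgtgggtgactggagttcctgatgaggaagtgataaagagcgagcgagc

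The next windows are shown for the largest rise of all such windows, which held none of the letters searched, for the 2 largest falls, and for Xist. Capitals mark CATTCC in Gm47708 and TATAAA, read on the other strand, in Xist.
2310005E17Rik (chr13:98435016-98435315, minus strand): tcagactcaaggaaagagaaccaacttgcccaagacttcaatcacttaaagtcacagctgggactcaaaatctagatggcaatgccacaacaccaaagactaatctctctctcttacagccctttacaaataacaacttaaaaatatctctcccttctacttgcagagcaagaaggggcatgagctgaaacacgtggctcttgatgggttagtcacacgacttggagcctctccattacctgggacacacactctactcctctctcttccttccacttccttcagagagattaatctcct
Gm47708 (chr10:95730076-95730375, plus strand): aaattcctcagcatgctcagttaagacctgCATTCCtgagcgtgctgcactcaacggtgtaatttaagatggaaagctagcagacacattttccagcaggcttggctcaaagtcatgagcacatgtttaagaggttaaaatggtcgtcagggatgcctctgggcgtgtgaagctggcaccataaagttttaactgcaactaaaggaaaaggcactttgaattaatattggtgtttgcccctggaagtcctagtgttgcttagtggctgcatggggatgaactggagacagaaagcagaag
3110009F21Rik (chr12:110158024-110158323, minus strand): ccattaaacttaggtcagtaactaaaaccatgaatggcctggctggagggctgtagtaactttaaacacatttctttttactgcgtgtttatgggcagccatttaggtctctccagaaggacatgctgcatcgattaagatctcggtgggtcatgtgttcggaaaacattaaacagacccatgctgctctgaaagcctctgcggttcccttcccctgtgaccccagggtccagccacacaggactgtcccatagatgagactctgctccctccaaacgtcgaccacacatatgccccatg
Xist (chrX:103483184-103483483, minus strand): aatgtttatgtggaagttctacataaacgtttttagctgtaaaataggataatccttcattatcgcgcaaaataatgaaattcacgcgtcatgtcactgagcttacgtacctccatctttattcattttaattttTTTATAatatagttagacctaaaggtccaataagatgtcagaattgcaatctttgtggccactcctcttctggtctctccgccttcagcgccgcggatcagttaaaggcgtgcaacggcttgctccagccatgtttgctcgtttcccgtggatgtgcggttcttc

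Mature miRNAs of 5 host genes with a region that passed the test are shown as RNA, with the seed (bases 2 to 8) in capitals, since hosts are described below by the miRNAs they carry. The first group is the miR-17-92 cluster of Mir17hg, in which miR-17 and miR-20a share 1 seed and miR-19a and miR-19b another.
miR-17-5p: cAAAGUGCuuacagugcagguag
miR-20a-5p: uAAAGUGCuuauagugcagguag
miR-18a-5p: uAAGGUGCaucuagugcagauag
miR-19a-3p: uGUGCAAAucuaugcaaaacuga
miR-19b-3p: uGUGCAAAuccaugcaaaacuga
miR-92a-3p: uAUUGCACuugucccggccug
The second group is the let-7 family, whose 3 members here share a seed and lie in ENSMUSG00000097375.
let-7a-5p: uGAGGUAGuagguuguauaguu
let-7f-5p: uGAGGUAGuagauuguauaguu
let-7d-5p: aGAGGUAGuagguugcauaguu
The last are single miRNAs of Mir205hg, Mir9-3hg and Mir670hg, in that order.
miR-205-5p: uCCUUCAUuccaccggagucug
miR-9-5p: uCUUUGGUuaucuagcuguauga
miR-129-5p: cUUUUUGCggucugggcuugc

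With the Actg1 guide, accessibility changed at many lincRNA regions, in both directions. Of the 1542 lincRNA regions, 1503 reached a signal of 10 in 3 or more libraries and were tested, and 39 were not. At an adjusted p under 0.05, 340 regions were higher and 346 lower in cells with the Actg1 guide, together 45.6% of those tested. Over all 61327 regions tested in the table, 41.3% passed the same test, with 20.6% higher and 20.7% lower, so the lincRNA share lay near the background. Without GFP guide replicate 3 the counts were 207 higher and 149 lower. Changes of at least 2-fold were seen in 81 regions that were higher and 120 that were lower, 13.4% of those tested. Over all regions the share was 12.2%, with 6.13% higher and 6.03% lower. The 3 Actg1 guide libraries all lay above the 3 GFP guide libraries in 395 regions and all below in 419, which is 54.2%, against 50.8% of all regions. The median log2 fold change was -0.015 at lincRNA regions and -0.006 over all regions. The median size of the change, without its sign, was 0.346 on the log2 scale at lincRNA regions and 0.310 over all regions.

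The share of lincRNA promoter regions that changed lay nearer to that of regions with no gene than to that of coding promoters. Within 1 kb of the TSS, 552 of 563 lincRNA regions were tested, and 105 were higher and 132 lower (42.9%). These counts were 64 and 58 without GFP guide replicate 3, and 87 were lower without the mean-variance trend. Protein-coding regions within 1 kb of a TSS were called in 31.2% of 9954 tested, and regions assigned to no gene in 43.9% of 40147. Of the lincRNA promoter regions 21 were at least 2-fold higher and 43 at least 2-fold lower (11.6%), against 0.995% of coding promoter regions and 15.1% of regions with no gene. Beyond 1 kb, 951 of 979 lincRNA regions were tested, and 235 were higher and 214 lower (47.2%). Median signal was 64.7 at lincRNA promoter regions, 272 at coding promoter regions and 40.2 at regions with no gene. These shares are a description and the differences between classes were not tested.

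Signal level was therefore held alike by sorting all regions into 5 equal classes of mean signal. In the highest class 50.4% of lincRNA promoter regions were called, against 34.6% of coding promoter regions and 54.7% of regions with no gene. In the lowest class the shares were 28.8%, 19.5% and 33% in the same order. In each of the 5 classes the share of lincRNA promoter regions lay above that of coding promoter regions, as the plot of shares by signal level shows. For changes of at least 2-fold the lincRNA promoter share lay above the coding promoter share in all classes but the highest. In the lowest class 24.7% of lincRNA promoter regions changed at least 2-fold, against 10.5% of coding promoter regions. In classes 2, 3 and 4 (1 lowest) the shares of lincRNA promoter regions were 19%, 12.3% and 8.39%. Those of coding promoter regions were 8.49%, 3.08% and 0.698%. In the highest class, which held 6587 of the 9954 coding promoter regions, limma called 59 of 117 lincRNA promoter regions but 0 of them at 2-fold or more, against 0.0152% of coding promoter regions. By position along the gene, 46.5% of 764 tested regions before the TSS and 44.8% of 739 after it were called.

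**Figure D1:**
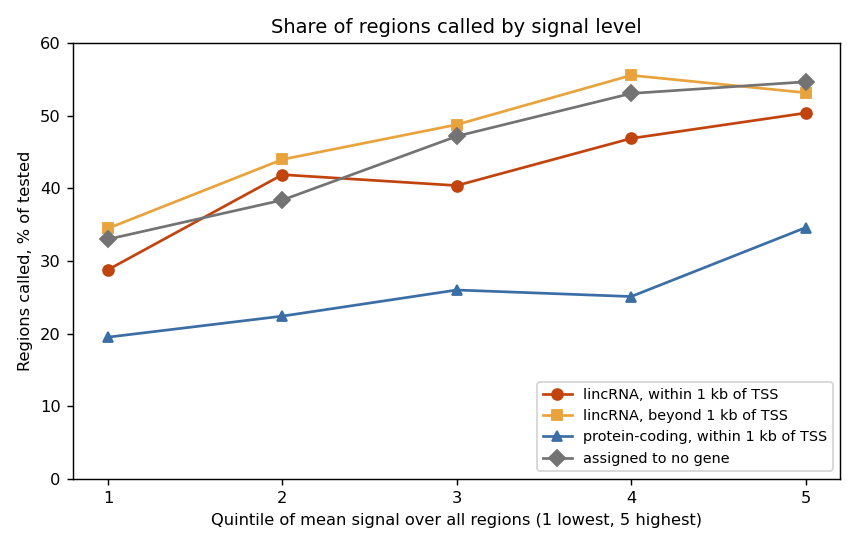
Share of tested regions called (adjusted p under 0.05, y axis, percent) in each quintile of mean signal (x axis, 1 lowest to 5 highest), for lincRNA regions within and beyond 1 kb of the TSS, coding promoter regions and regions assigned to no gene. Both lincRNA lines stay above the coding promoter line in all 5 quintiles and near the line of regions with no gene.

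The largest rises among named genes were at regions that were weak in GFP guide cells. The region of B930018H19Rik with the largest rise (chr8:34636211-34636766, 3827 bp after the TSS) had a signal of 67, 57 and 44 in Actg1 guide libraries, against 10, 7 and 11 in GFP guide libraries. The log2 fold change was 2.40 (SE 0.245, adjusted p 1.51e-10). Gm36843 (chr8:92001294-92001528) had 33, 38 and 39 with the Actg1 guide, against 10, 6 and 5 with the GFP guide, a log2 fold change of 2.35 (SE 0.297, adjusted p 2.07e-08). Its nearest coding gene was Irx3, a homeobox factor, 200 kb away. In both, no library of one group reached the other group, which the rule that chose the named rises required.

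Stronger regions also rose. At E130006D01Rik (chr5:111757548-111758194) the signal was 147, 164 and 132 in Actg1 guide libraries, against 38, 48 and 50 in GFP guide libraries (log2 fold change 1.64, adjusted p 7.46e-13). Gm40915 had 92, 81 and 101, against 28, 34 and 35 with the GFP guide (1.44, adjusted p 2.28e-09). The nearest coding gene to Gm40915 was Rreb1, which encodes a zinc finger transcription factor, 156 kb away. Among genes without a name, ENSMUSG00000110938 led with 86, 88 and 78 in Actg1 guide libraries, against 29, 15 and 15 in GFP guide libraries (log2 fold change 2.15, adjusted p 4.95e-12). That region lay 71.7 kb from Tnfaip3, which encodes A20, an inhibitor of NF-kB signalling. The groups did not overlap in any of the 15 named rises, by the rule that chose them, and their log2 fold changes ran from 1.41 to 2.40.

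Among the 15 named falls, Gm47708 had the highest signal. Its promoter region (chr10:95729893-95730321), whose window is printed above, had 80, 66 and 62 signal with the Actg1 guide, against 198, 231 and 204 with the GFP guide. The log2 fold change was -1.59 (SE 0.129, adjusted p 3.69e-13). The promoter region of 3110009F21Rik (chr12:110158087-110158929) had 48, 55 and 59 with the Actg1 guide, against 152, 133 and 150 with the GFP guide (-1.43, SE 0.144, adjusted p 1.13e-10). Its nearest coding gene was Dio3, the deiodinase that inactivates thyroid hormone, 121 kb away. Both regions were lower in all 3 Actg1 guide libraries than in any GFP guide library, by the rule that chose the named falls.

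Gm38910 had 33, 26 and 18 in Actg1 guide libraries, against 100, 108 and 93 in GFP guide libraries (log2 fold change -1.94, adjusted p 4.41e-10). CJ186046Rik had 47, 51 and 36, against 116, 113 and 119 with the GFP guide (-1.38, adjusted p 4.83e-09), and lay 9.87 kb from Six2, a homeobox gene of kidney and craniofacial development. The largest named fall, at Gm8633, rested on few reads: its signal was 6, 0 and 4 with the Actg1 guide, against 30, 25 and 28 with the GFP guide (-3.14, SE 0.568, adjusted p 1.86e-05). The unnamed ENSMUSG00000108038, 8.07 kb from the chemokine gene Cxcl12, had 4, 4 and 2 with the Actg1 guide, against 26, 33 and 21 with the GFP guide (-2.62, adjusted p 1.43e-05). Without GFP guide replicate 3, the adjusted p of Gm8633 was 0.0601 and the calls of Gm29590, Gm29684, 1700020N18Rik and Gm35721 also ended, with adjusted p between 0.0985 and 0.124; those of Gm29590 and Gm35721 ended without the mean-variance trend too.

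**Figure D2:**
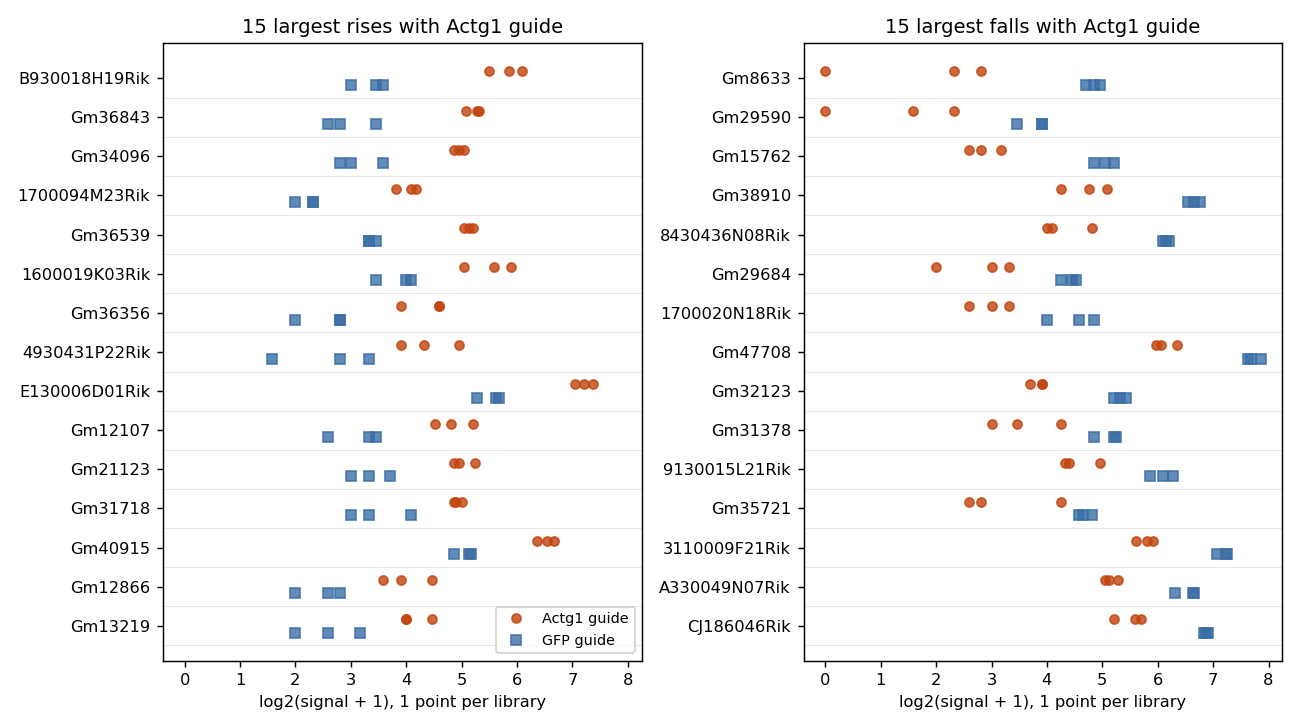
Signal in every library, as log2(signal + 1) on the x axis, for the 15 largest rises (left) and the 15 largest falls (right) with the Actg1 guide among named lincRNA genes; circles are Actg1 guide libraries and squares GFP guide libraries. The groups are separate in every row by the rule that chose the rows, and Gm47708 and E130006D01Rik combine a large change with a high signal.

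The neighbouring regions within 60 kb were counted in stretches chosen after the values were seen, leaving out the region each stretch was chosen for. Over all regions 41.3% were called, the value to read these counts against. B930018H19Rik had 7 neighbours, of which 4 were higher and 0 lower (57.1% called), 2 of the 4 in every alternative tried. They included a second lincRNA region, that of Gm34096, 23.2 kb away, which averaged 30 signal with the Actg1 guide and 7.5 with the GFP guide (log2 fold change 1.89, adjusted p 2.84e-06). So 2 of the 3 largest named rises came from 1 stretch of chromosome 8. ENSMUSG00000110938 had 10 neighbours, of which 4 were higher and 1 lower (50% called), 3 of these 5 in every alternative. A region of the same gene 4.86 kb away averaged 207 with the Actg1 guide and 125 with the GFP guide (log2 fold change 0.72, adjusted p 3.57e-07).

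Of the 8 neighbours of 3110009F21Rik 7 were tested, and 2 were higher and 5 lower, 6 of the 7 in every alternative. The lowest of these, 56.5 kb away and assigned to no gene, averaged 15.7 with the Actg1 guide and 57.5 with the GFP guide (log2 fold change -1.81, adjusted p 1.01e-07). The stretch around Gm47708 was mixed, with 4 of 18 neighbours higher and 4 lower (44.4% called), 5 of the 8 in every alternative. There a second region of Gm47708 (-0.74, adjusted p 0.0025, and 0.0988 without GFP guide replicate 3) and 1 of another lincRNA gene, ENSMUSG00000112289 (-1.42, adjusted p 2.13e-07), fell within 4 kb, while a region of ENSMUSG00000101517, 17.5 kb away, rose (1.01, adjusted p 0.00683).

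**Figure D3:**
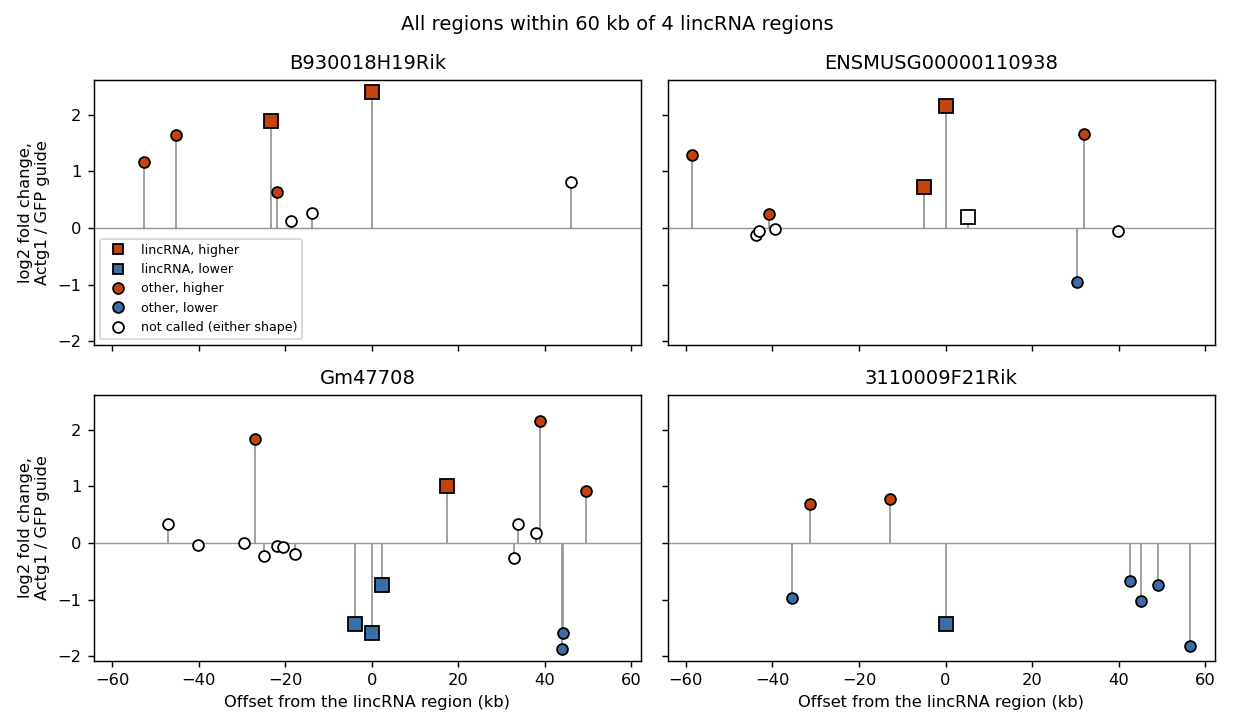
Log2 fold change (Actg1 guide over GFP guide, y axis) of all tested regions within 60 kb of 4 lincRNA regions, by offset in kb from that region (x axis, along the chromosome); squares are lincRNA regions and circles other regions. Called regions around B930018H19Rik are all higher, those around 3110009F21Rik, itself included, are 2 higher and 6 lower, and those around Gm47708 go both ways.

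Few regions could be matched by name to lincRNAs with a known nuclear role. Of 10 such genes listed, Malat1, Xist and Norad were found by name, with 6 regions, of which 1 was higher and 2 lower. Only 462 of the 1172 lincRNA genes had a name, so other listed genes may have regions that were not matched. Over all tested regions 41.3% were called, the value to read this and the list counts below against. The Xist promoter region (chrX:103483183-103483391) had 39, 65 and 42 with the Actg1 guide, against 67, 67 and 69 with the GFP guide. All 3 Actg1 guide libraries lay below the GFP guide libraries, 1 of them by a small step, and the log2 fold change was -0.51 (SE 0.186, adjusted p 0.024). The call ended without Actg1 guide replicate 1, without replicate 3 of either group, and without the mean-variance trend, with adjusted p up to 0.255 when a library was left out. Norad, whose RNA binds Pumilio proteins, had 61, 46 and 54 with the Actg1 guide, against 73, 75 and 50 with the GFP guide (-0.19, adjusted p 0.43), and the groups overlapped.

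Malat1 had 4 regions. The one at its start site had 38, 49 and 44 with the Actg1 guide, against 47, 43 and 38 with the GFP guide, a log2 fold change of 0.07 with overlapping groups. The region 1974 bp before it had 44, 31 and 50 with the Actg1 guide, against 66, 70 and 57 with the GFP guide (-0.60, SE 0.193, adjusted p 0.0117). The region 3510 bp before it had 36, 43 and 43 with the Actg1 guide, against 24, 28 and 25 with the GFP guide (0.65, SE 0.216, adjusted p 0.014). At the start site the groups overlapped, while the 2 upstream regions changed in opposite directions with separate groups. Both calls ended without GFP guide replicate 3, and the fall also without Actg1 guide replicate 2 and without the mean-variance trend, with adjusted p up to 0.107 when a library was left out.

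Of 15 growth-related names listed, some of them for the same gene, 3 were matched to a gene with a region. Of the 3 regions 0 were called. With 41.3% of all tested regions called, so few regions do not describe the class. Trp53cor1 (lincRNA-p21), a p53 target gene next to Cdkn1a, had 377, 324 and 349 with the Actg1 guide, against 334, 370 and 339 with the GFP guide (log2 fold change 0.02, SE 0.0752). Lncpint, also induced by p53, had 247, 239 and 261 against 233, 221 and 244 with the GFP guide (0.08, SE 0.086). H19, an imprinted RNA, had 1 region, 2404 bp before its TSS, with 27, 34 and 33 against 38, 29 and 32 with the GFP guide (-0.07, SE 0.223). All 3 genes had overlapping groups. A list drawn up as imprinted lincRNAs matched H19 and Xist by name, and so 2 regions with 0 higher and 1 lower, that of Xist. Whether either gene was imprinted in these cells was not examined.

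Of the developmental lincRNAs listed and matched by name, Lockd and Bvht had calls. Lockd is transcribed downstream of Cdkn1b, which encodes the cell cycle inhibitor p27. Its region near the TSS (405 bp before it) was among the most accessible lincRNA regions, with 814, 850 and 798 with the Actg1 guide, against 783, 833 and 816 with the GFP guide (log2 fold change 0.01, SE 0.05). A region 1888 bp before the TSS, 1.68 kb from Cdkn1b, had 165, 150 and 172 with the Actg1 guide, against 118, 111 and 100 with the GFP guide (0.59, SE 0.113, adjusted p 3.9e-05). The flanking region was higher in all 3 Actg1 guide libraries, while the groups overlapped in the strong one beside it.

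Bvht (Braveheart), known in mouse for heart lineage commitment, had 4 regions on chromosome 18. The region 2561 bp before the TSS had 54, 68 and 49 with the Actg1 guide, against 32, 37 and 41 with the GFP guide (log2 fold change 0.57, adjusted p 0.0122). The region 342 bp after the TSS had 27, 32 and 30 with the Actg1 guide, against 49, 53 and 51 with the GFP guide (-0.77, adjusted p 0.00255). The groups were separate in both, in opposite directions, and both calls ended without GFP guide replicate 3, the rise also without Actg1 guide replicate 2 and without the mean-variance trend. Over the 7 regions of this list 2 were higher and 1 lower, beside 20.6% higher and 20.7% lower of all tested regions.

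Among small RNA hosts, the gene of the miR-17-92 cluster had both of its regions lower. Mir17hg, whose miRNAs are printed above, is known as a growth-promoting MYC target. Its region 1926 bp before the TSS (chr14:115040541-115041365) had 220, 222 and 222 with the Actg1 guide, against 287, 293 and 312 with the GFP guide (log2 fold change -0.44, SE 0.0841, adjusted p 4e-05). Its region 678 bp before the TSS had 270, 220 and 243, against 300, 301 and 313 with the GFP guide (-0.33, SE 0.0862, adjusted p 0.00176). The only other region within 60 kb, with no gene, also fell, averaging 8.67 with the Actg1 guide and 22 with the GFP guide (-1.23, adjusted p 0.00593). Without GFP guide replicate 3 the calls of that region and of the one nearest the TSS ended, with adjusted p of 0.206 and 0.11, and the second also ended without the mean-variance trend.

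The host of let-7a-1, let-7f-1 and let-7d, ENSMUSG00000097375, had one of the highest lincRNA signals. It had 1260, 1096 and 1259 with the Actg1 guide, against 1326, 1261 and 1367 with the GFP guide. The difference was small (log2 fold change -0.15, SE 0.0473, adjusted p 0.0119), and the call ended under both other scalings, without the trend, without GFP guide replicate 3, and without Actg1 guide replicate 2, where the change was -0.08. The region of Mir205hg, 3950 bp before its TSS, had 10, 9 and 14 with the Actg1 guide, against 20, 25 and 30 with the GFP guide (-1.19, adjusted p 0.00299, and 0.134 without GFP guide replicate 3). That of Mir9-3hg, host of miR-9, which is best known from the nervous system, had 88, 105 and 97 with the Actg1 guide, against 82, 63 and 73 with the GFP guide (0.40, adjusted p 0.0176). That call ended without any 1 of Actg1 guide replicate 2 and GFP guide replicates 2 and 3, and without the trend. Mir670hg, which contains Mir670 and Mir129-2, had 1 region higher, 2804 bp before the TSS. It had 77, 80 and 83 with the Actg1 guide, against 45, 55 and 67 with the GFP guide (0.46, adjusted p 0.0157). That call ended without Actg1 guide replicate 3 (adjusted p 0.0585) and without the trend. The Mir670hg region 404 bp before the TSS was not called. It had 51, 58 and 55 with the Actg1 guide, against 73, 71 and 63 with the GFP guide (-0.30, adjusted p 0.146).

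In all, 15 lincRNA genes contained a miRNA gene by position and had 21 regions. Of these 2 were higher and 5 lower, with a median log2 fold change of -0.09. Over all tested regions 20.6% were higher and 20.7% lower, and the counts at miRNA hosts are small and were not tested. The fifth fall was at Gm16863, which contains Mir7680, with 48, 50 and 49 in Actg1 guide libraries, against 69, 83 and 76 in GFP guide libraries (-0.62, adjusted p 0.00201). Hosts without a call included ENSMUSG00000097418, which contains Mir155, an miRNA of immune cells: its promoter region had 193, 212 and 217 with the Actg1 guide, against 209, 201 and 200 with the GFP guide. Mir100hg, host of miR-100, let-7a-2 and miR-125b-1, had 2 regions with log2 fold changes of -0.06 and -0.23 (adjusted p 0.728 and 0.128). Snhg12, Snhg15 and Snhg20, hosts of small nucleolar RNAs, had log2 fold changes of -0.04, -0.09 and 0.21, and Snhg6 had -0.24 with an adjusted p of 0.0558. A list of 39 names of small RNA hosts matched 9 genes by name, with 11 regions. Of these 11 regions 1 was higher and 2 lower, beside 41.3% called over all tested regions. The list includes Mir155hg, but ENSMUSG00000097418 carried no name and is not among the 9.

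Other lincRNA genes with a symbol changed singly. Wincr1, named for its induction by Wnt signalling, had 177, 162 and 182 at its promoter with the Actg1 guide, against 123, 133 and 122 with the GFP guide (log2 fold change 0.47, SE 0.106, adjusted p 0.000394). Platr26, named for expression in pluripotent cells, had a region 4698 bp before its TSS with a mean signal of 17. That region had 21, 23 and 31 with the Actg1 guide, against 7, 7 and 13 with the GFP guide (1.28, adjusted p 0.00117). Platr22, of the same naming series, rose less, with 380, 376 and 385 against 336, 325 and 334 with the GFP guide (0.19, adjusted p 0.0246). The Platr22 call ended without Actg1 guide replicate 1, without replicate 3 of either group and without the trend.

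Mannr, 60.8 kb from the transcription factor gene Mecom, had 44, 39 and 42 at 549 bp before its TSS with the Actg1 guide, against 70, 68 and 71 with the GFP guide (-0.74, adjusted p 0.000711). Its region at 66 bp after the TSS had 119, 108 and 101 with the Actg1 guide, against 113, 111 and 92 with the GFP guide, with overlapping groups. Ptgs2os2, 56.9 kb from the prostaglandin synthase gene Ptgs2, had 126, 127 and 128 with the Actg1 guide, against 162, 173 and 149 with the GFP guide (-0.31, adjusted p 0.0205), a call that ended with GFP guide replicate 3 or Actg1 guide replicate 1 left out and without the trend. Over the 27 genes with a symbol that is no clone name, 38 regions were tested, and 9 were higher and 8 lower. Of all tested regions 20.6% were higher and 20.7% lower.

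Called regions of 1 lincRNA gene went the same way more often than both ways, in about the shares of coding genes. Of 306 lincRNA genes with at least 2 regions, 81 had at least 2 called regions. In 30 of these all called regions were higher, in 22 all were lower, and in 29 they went both ways (35.8%). Of 536 protein-coding genes with at least 2 called regions, 187 went both ways (34.9%), and the difference was not tested. Gm4544, 5.96 kb from Atp5g2, showed the widest split of the genes plotted. Its region 4831 bp before the TSS had 74, 87 and 91 with the Actg1 guide, against 38, 34 and 40 with the GFP guide (log2 fold change 1.12, adjusted p 4.45e-07). Its region 208 bp before the TSS had 15, 19 and 17 with the Actg1 guide, against 51, 33 and 43 with the GFP guide (-1.28, adjusted p 6.99e-05). In 1700061I17Rik a region 862 bp after the TSS had 163, 158 and 160 with the Actg1 guide, against 77, 83 and 92 with the GFP guide (0.89, adjusted p 4.13e-08). A region 4389 bp after the same TSS had 96, 87 and 106, against 173, 160 and 126 with the GFP guide (-0.59, adjusted p 0.000276).

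**Figure D4:**
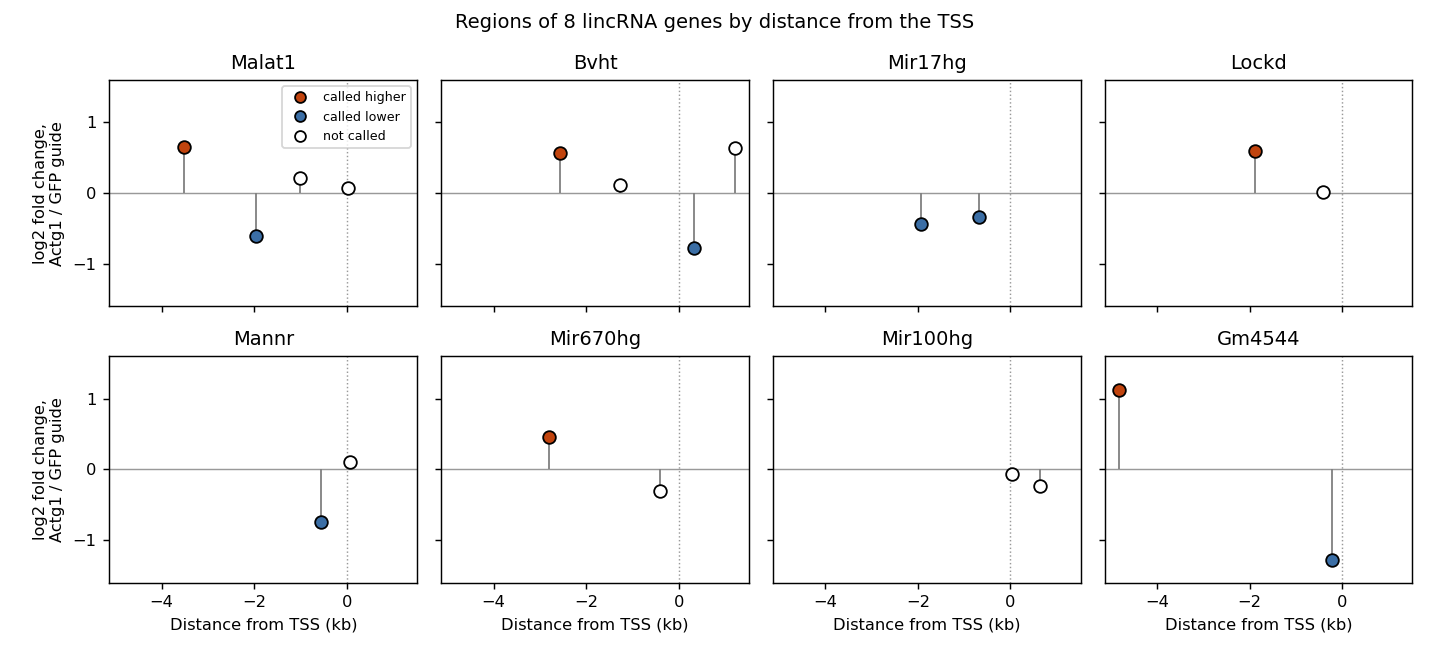
Log2 fold change (Actg1 guide over GFP guide, y axis) of each region of 8 lincRNA genes by its distance from the TSS in kb (x axis, negative before the TSS); filled points passed an adjusted p of 0.05. Both regions of Mir17hg are lower, while Malat1, Bvht and Gm4544 each hold a region called higher and a region called lower.

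The 10 most accessible lincRNA regions had log2 fold changes between -0.15 and 0.44. The highest signal was at a region of 2358 bp assigned to Gm34455, with its centre 5988 bp from the Gm34455 TSS. That centre lay 0.716 kb from Dusp1, a phosphatase gene that answers to stress and growth factors, so the region overlapped Dusp1. The region had 1580, 1639 and 1633 with the Actg1 guide, against 1418, 1451 and 1448 with the GFP guide (log2 fold change 0.17, SE 0.0377, adjusted p 0.000406), a call that ended without the trend. Another Gm34455 region, 1041 bp before its TSS, fell, with 72, 76 and 60 against 107, 107 and 102 with the GFP guide (-0.59, adjusted p 0.000923). Of the other strong regions, ENSMUSG00000087312, 141 kb from Klf14, had 979, 991 and 980 with the Actg1 guide, against 700, 763 and 793 with the GFP guide (0.37, adjusted p 5.96e-08). ENSMUSG00000085578 had 926, 946 and 842, against 650, 666 and 671 with the GFP guide (0.44, adjusted p 5.53e-09). In both the groups did not overlap. Gm14321, Gm36582 and 1700096K18Rik, with mean signals over 700 in both groups, had log2 fold changes between -0.02 and 0.00.

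Where a lincRNA promoter and the nearest coding promoter had separate regions, their changes were nearly uncorrelated. The log2 fold change of each lincRNA region within 1 kb of its TSS was set beside that of the promoter region of the nearest coding gene with one. Pearson's r across pairs was 0.11 for 36 pairs less than 10 kb apart, -0.04 for 185 pairs at 10 to 50 kb, -0.05 for 199 pairs at 50 to 200 kb and 0.05 for 132 pairs farther apart. These are descriptions across pairs that share the same 6 libraries. Each region was assigned to 1 gene, so a promoter region shared by a lincRNA gene and a coding gene could not form a pair. The values therefore do not cover shared promoters. Where both regions of a pair passed the test, 1 of 3, 20 of 35, 13 of 21 and 8 of 19 pairs went the same way in the same order of distance. The median distance of a lincRNA region to the nearest coding gene was 32727 bp, and 93 of 1542 region centres lay inside one.

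AP-1 letters were counted most often in the windows of regions that rose. RefSeq windows of 300 bases overlapped 127 tested lincRNA regions. AP-1 letters (TGANTCA, either strand) stood in 14 of the 26 windows whose region was higher with the Actg1 guide (53.8%), in 4 of the 30 whose region was lower (13.3%) and in 11 of the 71 not called (15.5%). They were held by 7.81% of all 32851 RefSeq promoter windows, whether or not these overlapped a region. Of the 7094 coding windows that overlapped a tested region, 4.88% held them. In all 29 windows the letters lay within the accessible region itself. Set the other way, 14 of 29 regions with AP-1 letters were higher and 4 lower, with a median log2 fold change of 0.12, against 12 higher and 26 lower of 98 without, with a median of -0.05. Median signal was 112 with the letters and 123 without.

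The same count at coding genes gave a smaller contrast. AP-1 letters stood in 65 of 882 coding windows whose region was higher (7.37%), in 68 of 1373 whose region was lower (4.95%) and in 213 of 4839 not called (4.4%). With the calls of 15 other settings, a check chosen after seeing the data, the share of lincRNA windows with AP-1 letters ran from 50% to 68.8% among regions called higher and from 10.7% to 16% among regions called lower. It was 10 of 16 and 2 of 13 without GFP guide replicate 3. The counts are small and were not tested, and the letters alone do not show that a factor was bound.

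The windows printed above show the range. Gm12273 held AP-1 letters in 2 places, starting 80 and 61 bases before the start, and its region had 62, 54 and 49 with the Actg1 guide, against 33, 26 and 31 with the GFP guide (log2 fold change 0.84, adjusted p 0.00049). Gm39317 had 52, 45 and 39 with the Actg1 guide, against 11, 15 and 25 with the GFP guide (1.27, adjusted p 3.93e-05). Gm36199 had 385, 397 and 383, against 191, 204 and 218 with the GFP guide (0.90, adjusted p 2.09e-12). For Gm39317 and Gm36199 the RefSeq start lay away from that of the table, which put the regions 874 and 1866 bp after its TSS. The window of 2310005E17Rik held no letters searched, and its region rose as well, with 115, 137 and 124 against 48, 44 and 48 with the GFP guide (1.39, adjusted p 9.58e-11). Gm14902, the largest fall with AP-1 letters, had a log2 fold change of -1.37 (adjusted p 4.42e-08).

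Other letters were counted in the same windows. CATTCC, the TEAD core, stood in 6 of 26 windows that were higher (23.1%), 11 of 30 that were lower (36.7%) and 12 of 71 not called (16.9%), against 14.7% of all promoter windows. The GC box GGGCGG stood in 22% of the 127 lincRNA windows and 46.2% of coding promoter windows. TATAAA stood in 12.6% of lincRNA windows and 13.6% of all windows, the CArG box of serum response factor in 3.15% and 1.63%, and the cyclic AMP response element TGACGTCA in 3.94% and 1.79%. No motif count was adjusted for base composition, which had a median of 51.3% G and C in the lincRNA windows and 56.3% in coding windows. The lincRNA windows all overlapped a tested region, which was not required of the coding and all-window shares in this paragraph.

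**Figure D5:**
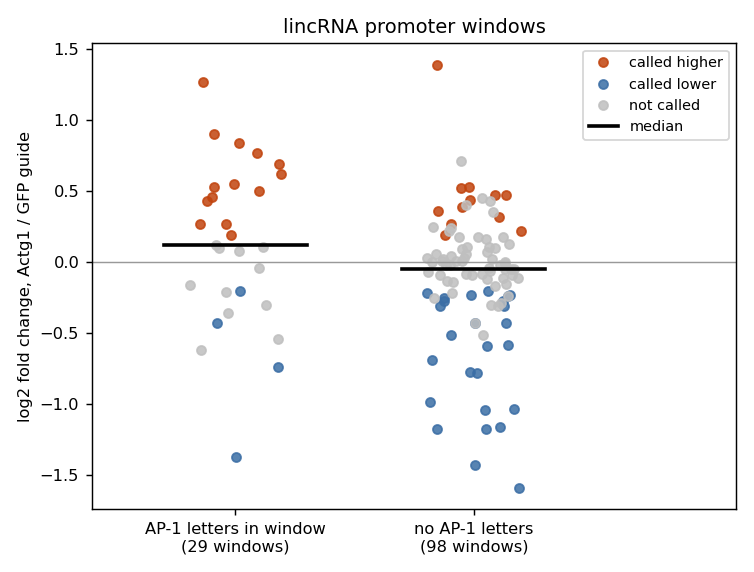
Log2 fold change (Actg1 guide over GFP guide, y axis) of 127 lincRNA regions that overlap a RefSeq promoter window, with (left) and without (right) AP-1 letters in the window; points are regions, spread sideways for view, and black bars are medians. With the letters 14 of 29 regions are called higher and 4 lower, and without them 12 of 98 are higher and 26 lower.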

How the data were processed

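The submitters' processing notes name build mm10 and these tools, without their roles: DESeq, DESeq2 1.36.0, featureCounts, Picard 3.0.0, STAR 2.7.10a and Trimmomatic 0.39. Peak calling, peak merging, the Tn5 offset and the annotation version: not given in the sources used here. As deposited by the authors, there is 1 signal value per region and library, a read count normalized between libraries and rounded, as read from the values. The deposited table also holds the fraction of each region inside its gene body and an unsigned distance in bp to the TSS of 1 assigned gene, at most 5988. Distances before or after the TSS were signed with the gene bounds and strand of the table.

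limma 3.58.1 in R 4.3.3, with a mean-variance trend, was fitted to log2(signal + 1) of all 61327 regions that reached a signal of 10 in 3 or more libraries. Fold changes are Actg1 guide over GFP guide on that scale and understate changes of weak regions. P-values were adjusted by Benjamini-Hochberg over all tested regions, with calls at 0.05. Within-group pairs other than GFP guide replicates 1 and 2 gave a chi-square per region of 1.034 to 1.125. Names needed a reciprocal overlap of at least 0.5 on the same strand, or 0.95 for the 53 genes without a RefSeq strand; protein names that the table gives to 363 lincRNA regions were not used. Named were the 15 largest rises and falls with separated groups, the 10 highest signals, listed genes, genes called both ways, up to 2 unnamed IDs per direction, symbols that are no clone name, and genes whose windows are printed. Members, lists and motifs were chosen with earlier results of these data known. Same-numbered libraries of the 2 groups correlated at 0.0252, 0.0138 and 0.0161 in their deviations from the group means, so the numbers were not taken to pair them. Peak sequences were not used here, and 1 listed gene is not reported here. Alternatives left out each library and changed the replicates, the replicate block, pseudocount, filter, scaling, variance model and promoter distance.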

Additional observations from a re-analysis of the deposited data

How the results depend on the processing

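No result changed direction past the threshold in any alternative run. GFP guide replicate 3 had the most weight: without it replicates 1 and 2 stood as 1 sample, whose spread was taken from the other group, and 356 of the 686 lincRNA calls were kept (51.9%), all in the same direction. Leaving out each of the 6 libraries in turn gave 207 to 334 lincRNA regions higher and 149 to 338 lower, 64 to 107 lincRNA promoter regions higher and 58 to 130 lower, and 7381 to 12490 of all regions higher and 5412 to 12216 lower. With no mean-variance trend 87 lincRNA promoter regions and 8120 of all regions were lower. With a promoter distance of 5 kb in place of 1 kb, 330 regions were higher and 331 lower. Of 125 named regions tested, 87 were called, 51 of these in every alternative, and 34 calls ended without GFP guide replicate 3.

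With 6 separate libraries and the replicate block, 383 lincRNA regions were higher and 387 lower, 126 and 149 of them promoter regions, and 14322 and 14403 of all regions. Without the block 382 lincRNA regions were higher and 382 lower. Same-numbered libraries deviated together by less than 0.1, although each correlated best with its own number, a hint from the data and not from the design. Scaling moved the median of all regions by less than 0.1 on the log2 scale. In the lowest of the 5 signal classes 32.8% of lincRNA regions were called and the median absolute log2 fold change was 0.548, against 51.9% and 0.185 in the highest. Weak regions hold fewer reads, and the part of depth in these shares was not tested.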

Other observations

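lincRNA regions were unevenly spread over the chromosomes. They made up 4.02% of all regions on chromosome 13 (120 regions) and 3.58% on chromosome 10 (123 regions), against 1.37% on chromosome 11 (55 regions) and 0.66% on the X chromosome (12 regions). On chromosome 11, the Actg1 guide gave 18 higher and 11 lower of 54 tested lincRNA regions, a median log2 fold change of 0.156. All 3887 tested regions of chromosome 11 gave 908 higher and 675 lower, with a median of 0.055. On chromosome 9, 16 of 107 were higher and 23 lower, with a median of -0.135. All 3410 tested regions of chromosome 9 gave 699 higher and 712 lower, with a median of -0.012. These shares are values only and were not tested.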
